A study of Mus musculus with 15 samples.

Results

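Hydrogen peroxide (H2O2), an oxidant, was compared with diphenyl iodonium (DPI), which the series describes as an inhibitor of reactive oxygen species, in a mouse dendritic cell line. The comparison took 6 of the 15 arrays of the series, those titled H2O2 and DPI, with 3 arrays in each group, and every probe set other than the controls of the manufacturer. The cells are 1 line grown from the epidermis of newborn mice of the A/J strain, so both groups share that origin and no other line stands beside it. One group received H2O2 alone and the other DPI alone. Neither received the contact allergen dinitrofluorobenzene (DNFB), which the series gave to 2 further groups, 1 with and 1 without DPI, and 3 non-treated arrays show the level without either compound. The sources used here give no dose and no duration for either compound, so a difference between them cannot be told apart from one in dose or time. Nor do they say whether replicate arrays stand for independent cultures; p-values therefore reflect array-to-array spread, possibly technical.

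Hydrogen peroxide enters cells, oxidizes reactive cysteines in enzymes and sensor proteins, and at low levels also acts as a messenger. In phagocytes and dendritic cells much of it starts as superoxide made by NADPH oxidase, whose catalytic subunit is a flavoprotein. Iodonium compounds such as DPI react with reduced flavins, so they block NADPH oxidase and also other flavoenzymes, among them mitochondrial complex I. Transcription factors that answer to oxidants include NRF2, which drives genes of glutathione and thioredoxin metabolism, NF-kB and AP-1, which drive inflammatory and immediate early genes, and HSF1, which drives chaperones. Maturing dendritic cells raise costimulatory molecules and chemokines and usually stop dividing.

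Signals below are rescaled fluorescence signals of 1 probe set per gene, in arbitrary units, given in the order of replicates 1, 2 and 3. Differences are log2 differences of H2O2 minus DPI on signals with 15 added, with the standard error (SE) of a limma fit to all 15 arrays, so a positive value means a higher signal with H2O2. Adding 15 understates the fold of dim genes. A gene was called when its adjusted p, by the method of Benjamini and Hochberg over all 12701 genes tested, was below 0.05.

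The expression profiles under the 2 compounds differed widely. Of 12701 genes, 2032 were higher with H2O2, which is 16% of those tested, and 2266 were lower, which is 17.8%, so that 33.8% were called. Of these, 721 were at least 2-fold higher and 571 at least 2-fold lower, and 86 and 50 differed at least 4-fold. The median difference over all genes was -0.065 and the median SE 0.197. Among the 27022 kept probe sets, each tested by itself, 7325 were called, which is 27.1%. The deposited values mix a scaling target of 250 (replicate 1 of both groups) with one of 500 (replicates 2 and 3), and without rescaling only 226 genes were called, 141 higher and 85 lower.

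**Figure D1:**
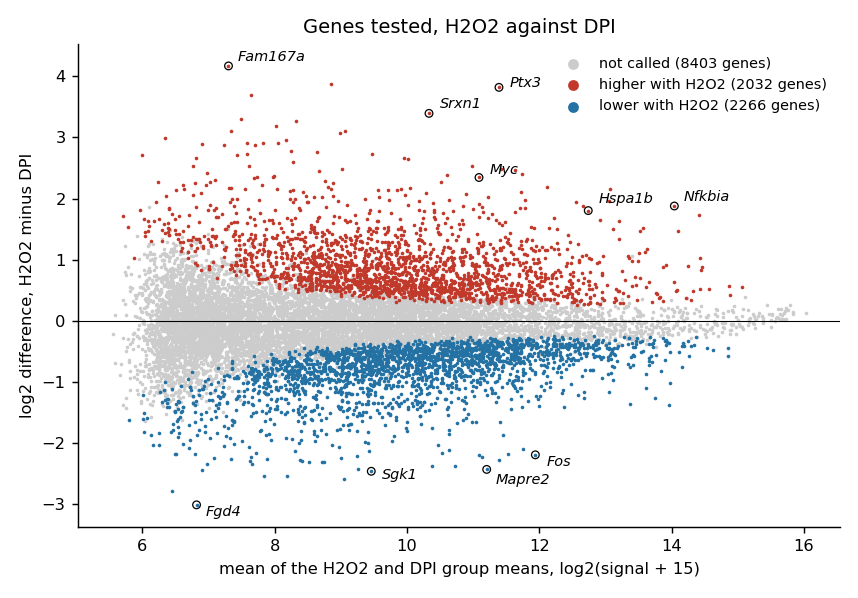
Log2 difference, H2O2 minus DPI, of each of the 12701 genes (vertical axis) against the mean of the H2O2 and DPI group means as log2 of the signal plus 15 (horizontal axis). The 2032 genes called higher are red, the 2266 called lower are blue and the 8403 not called are grey, and the called differences run from -3.01 to 4.17.

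Replicate arrays correlated across genes with r between 0.962 and 0.965 among H2O2 arrays and between 0.964 and 0.973 among DPI arrays, against 0.916 to 0.931 between an H2O2 and a DPI array. Genes are not independent replicates. The ratio of 3' to 5' signal of beta-actin, a control for RNA quality, was 1.33 ± 0.0767 (SD, n = 3) with H2O2 and 1.28 ± 0.0844 (SD, n = 3) with DPI (exact permutation test, 2-sided, p = 0.6, where 0.1 is the smallest p that 3 against 3 arrays allow). For Gapdh it was 0.88 ± 0.037 and 0.861 ± 0.0105 (SD, n = 3 each, exact permutation p = 0.7). On the DPI + DNFB arrays, which share in the spread of the fit, the beta-actin ratio was 2.07, 1.50 and 2.29. Without those arrays 4625 genes were called. All 18 dendritic cell markers with a probe set, of 19 listed, were above the signal filter, including Itgax, Flt3, Zbtb46, Cd74 and the Langerhans cell lectin Cd207. Their summed signal was 135960 to 137680 on the H2O2 arrays, 108410 to 118090 on the DPI arrays and 153580 to 162370 on the non-treated arrays. Of the markers of other cells with a probe set, 7 of 12 for macrophages were above the filter, 3 of 11 for keratinocytes, 3 of 10 for fibroblasts and 3 of 11 for T cells, mast cells and melanocytes. Above it were Adgre1, Fcgr1, Mertk, Cd68, Lyz2, C1qa and C1qb of the macrophage markers, and Krt5, Trp63 and Lor of the keratinocyte markers. So were Col1a2, Col6a3 and Thy1 for fibroblasts and Kit, Tyr and Pmel for the last group. Mrc1, Marco, Cd163, Siglec1 and Vsig4 were under the filter, as were Krt14, Krt1, Krt10, Col1a1, Col3a1 and Cd3e. The summed signal of the keratinocyte markers was 529 to 735 with H2O2 and 485 to 651 with DPI, and that of the fibroblast markers 561 to 760 and 531 to 560. Macrophage markers summed to 7539 to 12172 with H2O2 and 8130 to 14551 with DPI, and those of T cells, mast cells and melanocytes to 1170 to 1393 and 1146 to 1675. In a bulk culture, fewer cells of a kind and less RNA per cell cannot be told apart.

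Of the 15 genes named for the largest differences toward H2O2, Srxn1 is described with its list below. Fam167a read 643, 758 and 575 on the H2O2 arrays, 24.4, 42 and 7.85 on the DPI arrays and 55.2, 64.9 and 13.1 on the non-treated arrays. It differed by 4.17 ± 0.52 (adjusted p = 3.4e-06), and its DPI and non-treated arrays overlapped. Its DPI signals are dim, and the size depends on the value added before the logarithm: the difference was 4.94 with 1 added and 3.26 with 50 added, where Havcr2, next here, gave 3.52. Havcr2 encodes TIM-3, an inhibitory receptor of dendritic cells and T cells. It read 1562, 1921 and 1813 with H2O2, 56.7, 124 and 162 with DPI and 489, 668 and 507 without treatment, a difference of 3.88 ± 0.33 (adjusted p = 3.7e-08). Here the groups were ordered H2O2, non-treated, DPI with no overlap. The same order held for Ptx3, a secreted pentraxin that binds microbes, with 8810, 10023 and 11597 with H2O2, 587, 744 and 785 with DPI and 2079, 2407 and 2529.5 without treatment (difference 3.82 ± 0.15, adjusted p = 1.8e-12). A second probe set of Ptx3 differed by 1.13, and the mean of both by 2.47.

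Some others of the 15 were low with DPI rather than high with H2O2. The interleukin 10 receptor chain Il10ra read 556, 513 and 575 with H2O2 and 876, 676 and 532 without treatment, ranges that overlap, but 11.3, 118 and 37.7 with DPI. Its second probe set, which had a difference of -0.14, did not show this. Neat1, a long noncoding RNA of nuclear paraspeckles, read 1263, 1159 and 1150.2 without treatment, 413, 593 and 396 with H2O2 and 61.3, 11.6 and 66.7 with DPI, and its second probe set also had a difference near 0, of -0.07. A4galt, a glycosyltransferase, and Mfsd2a, a lipid transporter, differed by 3.70 and 2.99 (with 50 added, by 3.02 and 2.02), and against the non-treated arrays neither was called with H2O2 (adjusted p = 0.15 and 0.34) while both were lower with DPI (adjusted p = 3.7e-05 and 0.00013). Champ1, a protein of chromosome alignment, was likewise at 549, 573 and 708 with H2O2, 577, 637 and 541 without treatment and 102, 106 and 25.8 with DPI.

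In 3 others the H2O2 arrays stood far above both other groups. The signalling adaptor Traf1, a target of NF-kB, read 1651, 1698 and 1350.3 with H2O2, 157, 204 and 149 with DPI and 202, 279.5 and 195 without treatment. Mmp12, the macrophage elastase, read 1472, 1298 and 1609.6 with H2O2, 129, 180.4 and 175 with DPI and 193, 246 and 265 without treatment, so that DPI lay a little under the non-treated level. The pseudokinase Trib1 read 719.6, 859 and 734 with H2O2, 175, 43.4 and 42.9 with DPI and 19.7, 126 and 12 without treatment, with 1 DPI and 1 non-treated array well above the rest of their groups (difference 3.18 ± 0.53). Other probe sets of Traf1, Trib1 and Champ1 differed by 2.10, 1.07 and 1.73. Cldn34c1, Rusc2 and Sgsm3, also of the 15, had differences of 3.26, 2.92 and 2.91, and the next gene under the rule differed by 2.89.

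The 15 genes with the largest differences toward DPI follow. The microtubule end-binding protein Mapre2 read 5671, 5827 and 4951 with DPI and 1137, 961 and 920.1 with H2O2 (difference -2.43 ± 0.12, adjusted p = 5.0e-11), on either side of 3474, 3699 and 3908 without treatment. Its 3 other probe sets differed by -1.38 to -1.004, and the mean of all by -1.50. Esco2, a cohesin acetyltransferase, the centromere factor Mis18a, the kinesin Kif20a and the cyclin Ccne2 differed by -2.54, -2.38, -2.31 and -2.38, and another probe set of Esco2 by -1.38. The transcription factor Myb read 34.8, 55.7 and 23 with H2O2, 224, 271 and 303 with DPI and 224, 155 and 277 without treatment, so that only the H2O2 arrays were low. The RNA-binding protein Mex3b read 1136, 1319 and 1395 with DPI, 251, 151 and 211 with H2O2 and 368, 402 and 496 without treatment.

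Sgk1, a kinase that is induced by glucocorticoids and stress and phosphorylates FOXO factors, was high with DPI above all. Its signals were 1352, 1829 and 1779 with DPI, 205, 401 and 281 with H2O2 and 67.7, 98.6 and 48.7 without treatment, and no groups overlapped (H2O2 minus DPI -2.46 ± 0.23, adjusted p = 1.4e-07). Against the non-treated arrays, which both comparisons share, it differed by 4.29 with DPI and 1.83 with H2O2. The zinc transporter Slc39a8 read 1342, 1298 and 1606 with DPI but 203, 264 and 287 with H2O2 and 261, 389 and 325 without treatment. Rhpn2, Cpeb3, Sp4, Fgd4, Flrt2 and Bmp4 differed by -2.31, -2.34, -2.55, -3.01, -2.78 and -2.34, and the next gene under the rule differed by -2.30. The call of Flrt2 was lost with 1 added before the logarithm (difference -0.82, limma adjusted p = 0.445), and its 2 other probe sets differed by -1.54 and -0.70. The other probe set of Fgd4 had a difference of -0.51 and those of Cpeb3 of -2.93 and -0.45.

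NRF2 and glutathione genes were more often higher than lower with H2O2. Of 30 tested, 12 were higher with H2O2 and 4 lower, with a median difference of 0.18 against -0.065 over all genes. The called share was 53.3%, against 33.8% of all genes, of which 16% were called higher and 17.8% lower. Srxn1 encodes sulfiredoxin, which repairs overoxidized peroxiredoxins. It read 4413, 4134 and 3970.2 with H2O2, 399, 466 and 302 with DPI and 1532, 1621 and 1457 without treatment, and differed by 3.39 ± 0.13 (adjusted p = 1.4e-12), the lowest adjusted p of any gene. The non-treated arrays lay between, with differences of 1.43 for H2O2 and -1.96 for DPI against them. The 3 other kept probe sets of Srxn1 differed by 1.41 to 3.07.

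Other members differed in where the non-treated arrays lay, a grouping made after their values were seen. In some, H2O2 was high and DPI was not called against the non-treated arrays. Hmox1, the heme-degrading oxygenase, read 4566, 4503 and 2737 with H2O2, 1158, 1167 and 906 with DPI and 1166, 1268 and 932 without treatment (difference 1.83 ± 0.28, adjusted p = 3.4e-05). Sqstm1, a receptor of selective autophagy that also binds the NRF2 inhibitor KEAP1, read 16899, 18709 and 15162 with H2O2, 4025, 4628 and 4318 with DPI and 3827, 3775 and 3095 without treatment. Txnrd1, thioredoxin reductase and itself a flavoenzyme, read 11721, 11069 and 11733 with H2O2, 5233, 5111 and 6343 with DPI and 7201, 6503 and 6356 without treatment. This probe set of Txnrd1 had a difference of 1.05, and the 2 others had smaller ones of 0.58 and 0.60.

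In others DPI alone was low. Gclm, the modifier subunit of the enzyme that limits glutathione synthesis, read 5096, 3895 and 4858 with H2O2 and 4556, 3585 and 4227 without treatment, which overlap, and 1942, 1427 and 1983 with DPI (H2O2 minus DPI 1.37 ± 0.14, adjusted p = 4.5e-07). Osgin1 was at 822, 1111 and 1165 with H2O2 and 609, 638 and 925 without treatment against 118, 237 and 285 with DPI. Keap1, the inhibitor of NRF2, read 2329, 2556 and 2057 with H2O2, 2234, 2188 and 1991 without treatment and 1294, 1186 and 993 with DPI. The gene of NRF2, Nfe2l2, differed by 1.002 ± 0.10, the cystine transporter Slc7a11 by 1.66 ± 0.26 and the biliverdin reductase Blvrb by 0.88 ± 0.21. The other probe set of Slc7a11 had a smaller difference of 0.80. Glutathione transferases Gstp1 (-0.59) and Gsto1 (-0.39), the transketolase Tkt (-0.44) and the carbonyl reductase Cbr3 (-0.90) were higher with DPI. Nqo1, the quinone reductase, had overlapping signals of 101, 49.5 and 111 with H2O2 and 50.3, 56.6 and 10.4 with DPI (difference 0.99 ± 0.55, adjusted p = 0.18), and Gclc, the catalytic partner of Gclm, had a difference of -0.21 (adjusted p = 0.23).

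The promoter of Gclm held 1 match to the antioxidant response element, the DNA motif of NRF2, searched as TGACNNNGC on both strands in the 250 bases before the RefSeq start (GRCm38.p6). Of all 32851 such windows, 10.2% hold a match, so a match is common, and none was found in the window of Srxn1. It is printed with 20 bases to each side, the match in capitals, because Gclm is the list's clearest member that was low with DPI and at the non-treated level with H2O2.
Gclm, chr3:122245403-122245451, plus strand: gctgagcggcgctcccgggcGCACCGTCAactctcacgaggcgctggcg

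**Figure D2:**
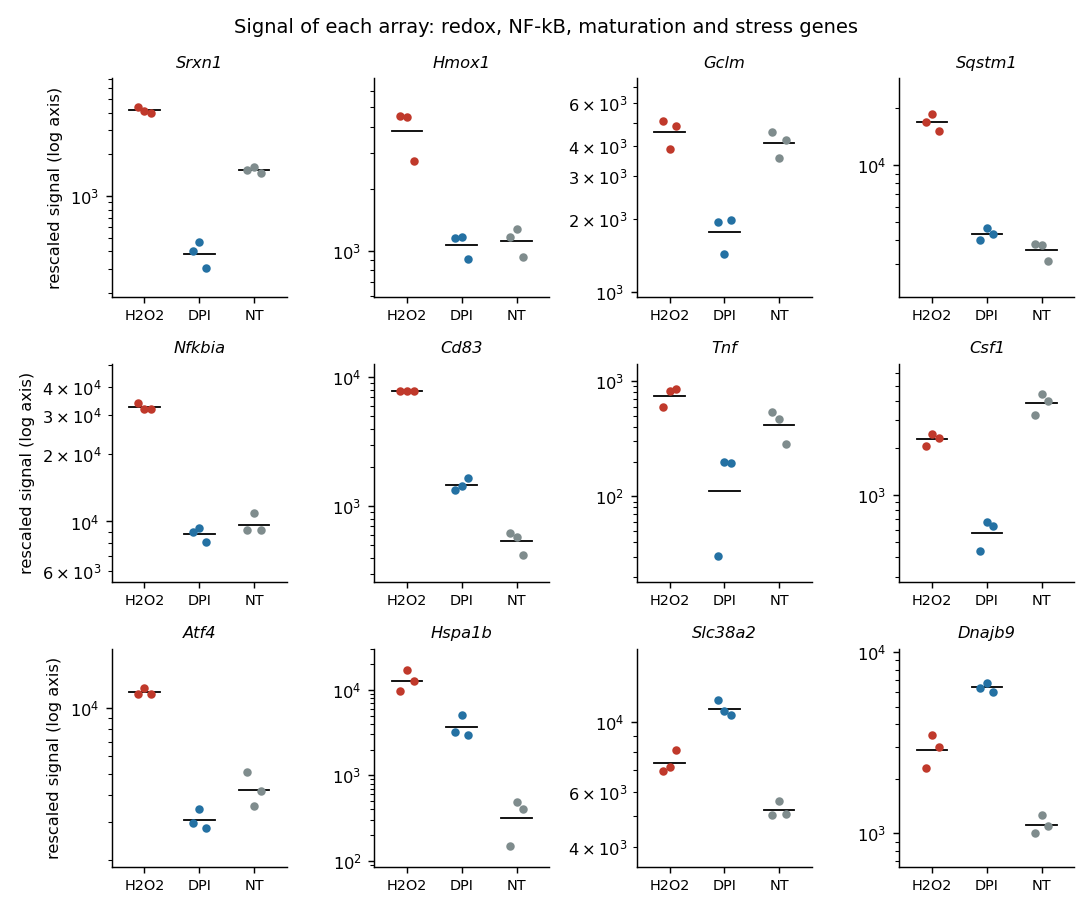
Rescaled signal of each array (log axis) of 12 genes, with 3 arrays in each of the H2O2, DPI and non-treated (NT) groups and a bar at the group mean taken on the log2 scale after adding 15 and turned back to signal. H2O2 arrays lie above DPI arrays in 10 panels and below them in those of Slc38a2 and Dnajb9, while the non-treated arrays lie near DPI for Hmox1 and Nfkbia and near H2O2 for Gclm.

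Of 17 other antioxidant genes tested, 1 was higher with H2O2 and 6 were lower, with a median of -0.28; 41.2% were called, against 33.8% of all genes. Glutaredoxin Glrx read 712, 772 and 525 with H2O2, 1442, 1344 and 1402 with DPI and 391, 291 and 248 without treatment, so DPI was highest and no groups overlapped. The glutathione peroxidases Gpx1 (-0.34) and Gpx4 (-0.52) and peroxiredoxin Prdx2 (-0.41) were lower with H2O2, but the calls of Gpx1 and Prdx2 were lost in 4 and 3 of the 6 fits without 1 array. The member that was higher was Txnip, the inhibitor of thioredoxin, at 4455, 6104 and 4903 with H2O2 and 2432, 2282 and 2093 with DPI, but the non-treated arrays read 8644, 9177 and 6991, above both. Without DPI replicate 3 the lower members numbered 3, and without DPI replicate 1 the higher ones 2.

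Genes of NADPH oxidase, the flavoenzyme named above, differed little on the 1 probe set used for each gene. Of 9 tested, 3 were higher with H2O2 and none lower, 33.3% called, about the 33.8% of all genes. The largest difference among the called was 0.40, that of the activator Vav1. Cybb, the flavoprotein subunit, read 71.9, 271 and 412 with H2O2 and 98.8, 351 and 341 with DPI, wide and overlapping ranges (difference -0.16 ± 0.53, adjusted p = 0.86). The 2 other kept probe sets of Cybb had larger differences toward DPI, of -1.15 and -0.49. Its partner Cyba had a difference of -0.22 ± 0.11 (adjusted p = 0.16), the adaptor Ncf4 differed by 0.27 ± 0.10 and the GTPase Rac1 by 0.34 ± 0.13. The other probe set of Vav1 had a difference of -0.33 and that of Rac1 one of -0.04, neither called in the opposite direction. None of the 3 calls held without each array: with 1 H2O2 or 1 DPI array left out, 0 or 1 members were called higher, 0 of them without H2O2 replicate 1, H2O2 replicate 2 or DPI replicate 3. With DPI replicate 2 left out, 1 member was called lower.

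Of 32 genes in a wider list of flavoenzymes, 4 were higher with H2O2 and 12 lower, or 9 to 10 lower with any 1 array left out, with a median of -0.28. Over all genes 16% were called higher and 17.8% lower. Xanthine dehydrogenase Xdh, a source of oxidants, read 1401, 1202 and 1161 with DPI and 515, 645 and 580.0 with H2O2 (difference -1.09 ± 0.15). The electron carriers of fatty acid oxidation Etfdh (-1.07), Etfb (-0.61) and Etfa (-0.39) and the dehydrogenase Acadm (-0.61) were lower with H2O2 as well. Smox, spermine oxidase, which makes H2O2, was the largest exception, at 1796, 1818 and 1461 with H2O2, 503, 564 and 492 with DPI and 1148, 958 and 774 without treatment, though its other probe set had a difference of -0.20.

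Genes of NF-kB signalling and cytokines mostly stood higher with H2O2. Of 28 tested, 20 were higher and 1 lower, with a median difference of 1.06, against 16% called higher over all genes. Nfkbia, the inhibitor that NF-kB induces as its own brake, read 33710, 31675 and 31702 with H2O2, 8968, 9345 and 8098 with DPI and 9161, 10860 and 9155 without treatment (difference 1.88 ± 0.13, adjusted p = 2.6e-09). Other feedback genes were also higher, with differences of 2.14 for Nfkbie, 2.10 for Tnip1 and 1.36 for Tnfaip3, the deubiquitinase A20. Of the subunits, Rel differed by 2.15 ± 0.32, Relb by 1.51 ± 0.20 and Rela by 0.78 ± 0.12, whereas Nfkb2 had a difference of 0.42 that did not pass (adjusted p = 0.078).

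The promoter of Nfkbia is shown because the gene is a known feedback target of NF-kB. It held 1 match to the NF-kB site, which 7.25% of all windows hold, in the same window and on both strands. The match is in capitals, with the bases that remain before the start on its right. Ptx3, looked up for the same site, held none, and of 13 genes looked up for a motif of their list, 5 held it.
Nfkbia, chr12:55492648-55492696, minus strand: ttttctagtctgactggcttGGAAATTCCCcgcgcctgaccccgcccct

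Among cytokines, tumour necrosis factor, Tnf, read 592, 819.8 and 856 with H2O2, 30, 199.9 and 193 with DPI and 536, 467 and 285 without treatment (difference 2.59 ± 0.46, adjusted p = 0.00019). Csf1, the growth factor of macrophages, was lower than non-treated in both groups but more so with DPI, at 2062, 2455 and 2311 with H2O2, 439.6, 675 and 636 with DPI and 3269.7, 4404 and 4005 without treatment. Il23a, a subunit of interleukin 23, read 502, 279.7 and 253 with H2O2, 96.8, 41.7 and 85.9 with DPI and 20, 20.6 and 20.9 without treatment. Bcl3 (2.78), Il1a (1.10), Il1rn (1.27) and Il18 (1.03) were higher with H2O2, and Il15 (-0.67) was lower, a call held without H2O2 replicate 3 but lost without any other 1 of the 6 arrays. Il1b read 725, 422 and 414 with H2O2 and 439, 497 and 506 with DPI, ranges that overlap (adjusted p = 0.86), and both stood above 258, 229.7 and 265 without treatment. Ptgs2 (difference 0.02, adjusted p = 0.98) and Il10 (0.18, adjusted p = 0.79) did not pass either.

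Dendritic cell maturation genes were higher with H2O2 in 9 of 18 cases and lower in 1, with a median of 0.70. The called share was 55.6%, against 33.8% of all genes. The maturation marker Cd83 read 7759.9, 7864 and 7767 with H2O2, 1337, 1436 and 1653 with DPI and 624, 584 and 423 without treatment, so that both compounds exceeded the non-treated arrays and H2O2 by far the most (H2O2 minus DPI 2.40 ± 0.13, adjusted p = 2.2e-10). The costimulatory ligand Cd80 had the same order, with 2590.4, 2086 and 2405 with H2O2, 859, 678 and 1115 with DPI and 424, 463 and 417 without treatment. Cd40, the receptor for T cell help, read 3421, 2859.6 and 2976 with H2O2, while DPI at 956, 1458 and 1281 and non-treated at 1182, 997 and 968 overlapped. The adhesion molecule Icam1 differed by 1.40 ± 0.15 and the ligand Tnfsf9 by 1.37 ± 0.24. Cd86 was the exception among the classical costimulators, with 2552, 2886 and 2954 with H2O2 against 1934, 2338 and 2474 with DPI (difference 0.32 ± 0.16, adjusted p = 0.14); its second probe set differed by 1.09. Cd48 was lower with H2O2 (-0.84 ± 0.15).

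Of 20 chemokines and receptors tested, 5 were higher with H2O2 and 3 lower, 40% called, near the 33.8% of all genes. Ccl3, which draws monocytes and T cells, read 5136, 4232 and 3518 with H2O2, 2715, 1412 and 1589.5 with DPI and 284, 126 and 108 without treatment (difference 1.21 ± 0.26, adjusted p = 0.0011). The neutrophil chemokine Cxcl2 likewise read 2846, 2535 and 2044 with H2O2, 1134, 899 and 888 with DPI and 287, 219.7 and 153 without treatment, and both compounds thus lay above the non-treated arrays. Cxcl3 (1.50), Ccl4 (1.07) and Cxcl16 (0.94) were higher with H2O2. The chemokine receptor Cxcr4 read 853, 789 and 647 with DPI, 180.2, 259.6 and 128 with H2O2 and 188, 338 and 234 without treatment, and Ackr3, which binds the same ligand, read 714, 822 and 468 with DPI, 117, 169 and 130.1 with H2O2 and 218, 596 and 195 without treatment. These receptors, with Ccl2 (-0.83), were the members higher with DPI.

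Antigen presentation and interferon genes were called about as often as all genes (28.6% and 34.5%, against 33.8%). Of 21 antigen presentation genes 2 were higher and 4 lower. Ciita, the master activator of MHC class II genes, read 682, 417 and 535 with H2O2, 261, 184 and 186 with DPI and 797, 715 and 793 without treatment. The immunoproteasome subunits Psmb8 (-0.42), Psmb9 (-0.56) and Psmb10 (-0.44) were lower with H2O2. The lower members numbered 2 without H2O2 replicate 1, H2O2 replicate 3 or DPI replicate 1. Of 29 interferon response genes 6 were higher, led by the transcription factor Irf8 (1.64 ± 0.12), and 4 lower, led by Oas3 (-1.34 ± 0.47). The call of Oas3 was lost without H2O2 replicate 3, where its difference was -0.57, or without DPI replicate 1 or 2. The lower members numbered 2 without H2O2 replicate 3 and 0 without DPI replicate 2.

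Immediate early genes, which respond within minutes to growth factors and stress, went both ways. Of 31 tested, 14 were higher with H2O2 and 7 lower, so that 67.7% were called against 33.8% of all genes. Fos, a subunit of the transcription factor AP-1, was high with DPI. It read 8107, 8702 and 8384 with DPI, 1530.2, 2745 and 1443 with H2O2 and 965, 618 and 412 without treatment, with no overlap between any groups (H2O2 minus DPI -2.19 ± 0.28, adjusted p = 4.7e-06). Its partner Junb was high with H2O2, at 2537, 4065 and 3156, against 750.2, 610.2 and 604 with DPI and 1296, 1005 and 557 without treatment (difference 2.27 ± 0.22, adjusted p = 1.7e-07). Jund (1.52 ± 0.14) and Jun (1.04 ± 0.21) were higher with H2O2 as well, while Fosb had a difference of -0.18 ± 0.27 (adjusted p = 0.68).

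Members of the EGR family of zinc finger factors also differed from one another. Egr2 read 1641, 1393 and 1242 with DPI, 377, 262 and 310.1 with H2O2 and 63.3, 67.1 and 68.6 without treatment (difference -2.12 ± 0.21, adjusted p = 2.9e-07). Egr1 instead read 10385, 23824 and 15408 with H2O2, 8527, 6829.8 and 7149 with DPI and 952, 522 and 202 without treatment. The H2O2 and DPI arrays did not overlap, but the difference of 1.06 ± 0.42 missed the threshold (adjusted p = 0.057). Egr3 had a difference of 0.17 ± 0.15 (adjusted p = 0.41). The Krüppel-like factor Klf4 (-1.67 ± 0.18), the inhibitor of differentiation Id3 (-1.60 ± 0.24) and the nuclear receptor Nr4a2 (-1.19 ± 0.12) were higher with DPI, and the second of the other probe sets of Nr4a2 had the opposite sign without being called. Klf6 (0.82) and Id2 (0.88) were higher with H2O2.

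Ier2, Ier3 and Ier5, small immediate early proteins, had H2O2 arrays well above both other groups. Ier2 read 8683, 11279 and 8758 with H2O2, 2313, 1876 and 2062 with DPI and 1919, 1507 and 1233 without treatment (difference 2.19 ± 0.15), and Ier3 and Ier5 differed by 2.02 ± 0.18 and 1.68 ± 0.16. The mRNA-decay protein Zfp36 (1.45) and the transcription factor Atf3 (1.30) were also higher with H2O2. Atf3 read 1566, 1948 and 1231 with H2O2, 714, 537 and 625 with DPI and 72.2, 156 and 83.8 without treatment.

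Myc had the largest difference of this list and a different basis. It read 4689.6, 4884 and 5122 with H2O2 and 6126, 5314 and 5842 without treatment but 845, 1068 and 954 with DPI, so that DPI was far lower than both (H2O2 minus DPI 2.35 ± 0.13, adjusted p = 2.0e-10). Against the non-treated arrays Myc differed by -2.58 with DPI (adjusted p = 6.0e-11) and by -0.23 with H2O2 (adjusted p = 0.2). Mxd1, an antagonist of MYC, was the opposite, at 1114, 998 and 946 with DPI, 354, 291 and 222 with H2O2 and 133, 61.4 and 71.2 without treatment (difference -1.79 ± 0.25). Of 21 MYC and polyamine genes tested, 3 were higher with H2O2 and 6 lower, with a median of -0.15. The called share was 42.9%, against 33.8% of all genes.

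The CArG box, the motif of serum response factor that stands before many immediate early genes, was found in 4 of the 5 RefSeq start windows of Egr2 and in neither that of Fos nor that of Junb. It is present in 1.47% of all windows. Bases further upstream were not searched, so a CArG box of Fos or Junb lying there would have been missed. The search therefore cannot tell whether Fos and Junb lack the motif. Of the 4 Egr2 windows with a match, 3 overlap and share the match printed here in capitals, with 20 bases to each side. It is shown because Egr2 was among the members high with DPI.
Egr2, chr10:67537777-67537826, plus strand: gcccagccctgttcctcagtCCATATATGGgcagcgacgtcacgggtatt

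**Figure D3:**
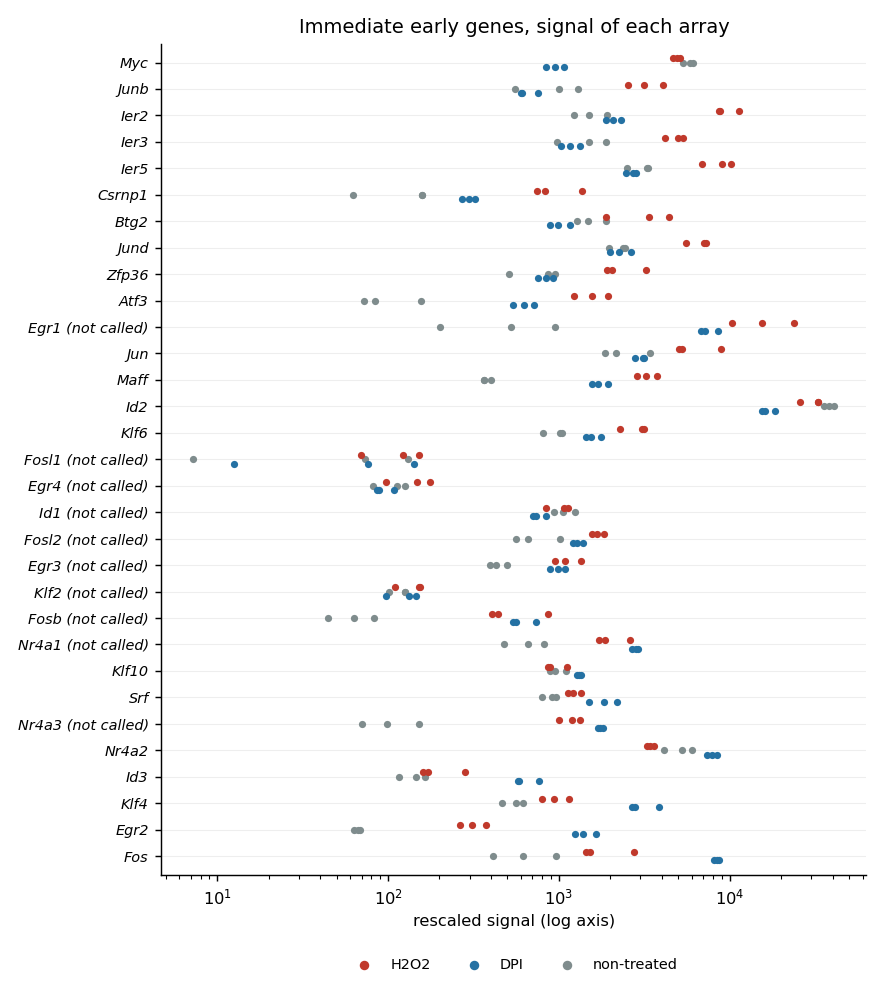
Rescaled signal (log axis) of each H2O2, DPI and non-treated array for the 31 immediate early genes tested, ordered by the difference H2O2 minus DPI. The 14 genes called higher run from Myc down to Klf6, with Egr1, not called, among them, and the 7 called lower end with Fos with 1530 at H2O2 replicate 1 against 8107 at DPI replicate 1.

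Genes that restrain MAP kinase signalling also differed by member. Of 19 tested, 9 were higher with H2O2 and 4 lower, 68.4% called against 33.8% of all genes. The phosphatase Dusp5, which acts on ERK in the nucleus, read 7150.1, 6734 and 6059.9 with H2O2, 2118, 1638 and 1795 with DPI and 1564, 1325 and 1127 without treatment. Dusp6, its cytoplasmic counterpart, read 6092, 6730.5 and 6693 with H2O2, 2374, 3182 and 3231 with DPI and 10342, 8178 and 8369.5 without treatment, so that both groups lay under the non-treated arrays. Dusp8 (1.72 ± 0.23), Dusp16 (1.19 ± 0.11) and Spred1 (1.70 ± 0.12) were higher with H2O2, and Dusp10 (-1.22 ± 0.20) and Spry4 (-1.10 ± 0.40) lower. Dusp1 had a difference of 0.21 ± 0.23 (adjusted p = 0.55). The 4 lower members became 1 without DPI replicate 3 and 2 without DPI replicate 1 or any 1 H2O2 array.

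Of 23 chaperones of the heat shock response, 8 were higher with H2O2 and 2 lower, and 13 did not pass, so that 43.5% were called against 33.8% of all genes. The inducible chaperone Hspa1b read 9739.8, 17043 and 12562 with H2O2, 3195, 5110.3 and 2975 with DPI and 151, 491 and 405 without treatment, so that both compounds exceeded the non-treated arrays (H2O2 minus DPI 1.80 ± 0.51, adjusted p = 0.0093). Its near-identical copy Hspa1a, which shares sequence with it and cannot be surely separated, had a difference of 1.13 ± 0.54 (adjusted p = 0.12). The co-chaperones Dnajb1 (1.16 ± 0.23) and Bag3 (1.03 ± 0.14) and the cytosolic chaperones Hsph1 (0.70 ± 0.16) and Hsp90aa1 (0.55 ± 0.11) were higher with H2O2. Dnajb4 was lower, at 1032, 1398 and 1084 with H2O2 against 2839, 2192 and 2492 with DPI. Hsp90aa1 and Dnajb4 each had another probe set of the opposite sign that was not called. Without H2O2 replicate 1 or DPI replicate 3, 1 member was lower. The mitochondrial chaperonins Hspd1 (0.15, adjusted p = 0.4) and Hspe1 (-0.07, adjusted p = 0.77) did not pass.

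The Hspa1b promoter is shown as that of the leading chaperone. It held 1 match to the heat shock element, searched as GAANNTTC, and 6.69% of all windows hold one. The 8 bases of the match are in capitals.
Hspa1b, chr17:34959315-34959362, minus strand: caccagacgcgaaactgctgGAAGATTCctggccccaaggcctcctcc

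Genes of the ATF4 response, which cells use when amino acids run short or proteins misfold, went both ways. Of 27 tested, 10 were higher with H2O2 and 6 lower, 59.3% called against 33.8% of all genes. Atf4 itself read 11586, 12424 and 11661 with H2O2, 2968, 3427 and 2819 with DPI and 5118, 3544 and 4178 without treatment (difference 1.95 ± 0.12, adjusted p = 8.6e-10). Chac1, which degrades glutathione, read 652, 698 and 433 with H2O2, 151, 128 and 129 with DPI and 162, 289 and 209 without treatment. Cebpg (1.56 ± 0.14), Cebpb (1.42 ± 0.14), the pseudokinase Trib3 (1.37 ± 0.30) and Ddit3, also called CHOP (0.82 ± 0.19), followed, and Asns, asparagine synthetase, was close to the threshold (0.36 ± 0.13, adjusted p = 0.044), its call lost without any 1 array but DPI replicate 2 (adjusted p up to 0.19). The other probe set of Ddit3 had a difference of only 0.16.

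The members higher with DPI make or import amino acids, though Asns and the transporter Slc7a1 (0.96 ± 0.10), which do so too, were higher with H2O2. Cth, which makes cysteine, read 876, 759.6 and 668 with DPI, 341, 395 and 385 with H2O2 and 161, 114 and 117 without treatment (difference -1.004 ± 0.21). The serine pathway enzymes Phgdh (-0.65 ± 0.14), Psph (-0.67 ± 0.13) and Shmt2 (-0.56 ± 0.11) and the transporter Slc38a2 (-0.56 ± 0.10) were also lower with H2O2. Slc38a2 read 11668, 10789 and 10457 with DPI, 6975, 7186 and 8104 with H2O2 and 5054, 5582 and 5084 without treatment. No test was made of enzymes against factors, a grouping chosen after the values were seen.

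The C/EBP-ATF element TGATGNAA was found in 1 of the 3 windows looked up for this list, that of Chac1, and 3.45% of all windows hold it. Another match lay in the window of Atf3, which belongs to the immediate early list here. That gene was looked up for the cAMP response element, TGACGTCA, and its window held none. Motifs of other lists matched elsewhere too, with NF-kB sites in windows of Hspa1b, Fos and Egr2. Antioxidant response elements lay in windows of Nfkbia, Egr2, Cdc6 and Rrm2, heat shock elements in those of Sgk1 and Havcr2 and a forkhead element in that of Junb. Both matches to the C/EBP-ATF element read TTGCATCA on the strand printed and stand in capitals.
Chac1, chr2:119351029-119351076, plus strand: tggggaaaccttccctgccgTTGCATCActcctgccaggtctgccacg
Atf3, chr1:191183416-191183463, minus strand: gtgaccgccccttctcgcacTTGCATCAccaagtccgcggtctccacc

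Sensors and chaperones of the endoplasmic reticulum (ER) were lower with H2O2 in 6 of 26 cases and higher in 2, 30.8% called and no more often than the 33.8% of all genes. The kinase PERK, Eif2ak3, read 3155, 3217 and 3241 with DPI, 989, 1194 and 924 with H2O2 and 2194, 1911 and 1675 without treatment (difference -1.62 ± 0.13, adjusted p = 2.3e-08). Dnajb9, an ER co-chaperone, read 6348, 6768 and 6026 with DPI, 2287, 3484 and 3006 with H2O2 and 1007, 1264 and 1093 without treatment, both compounds thus above the non-treated arrays. The sensor Atf6 differed by -0.82 ± 0.15, with another probe set of the opposite sign that was not called. Xbp1 was higher with H2O2 (0.87 ± 0.17), but 4595, 6816 and 5539 with H2O2 and 2501, 3926 and 2866 with DPI all lay under 8919, 11059 and 9368 without treatment.

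Genes of cell division were lower with H2O2 than with DPI. Of 27 mitosis genes 26 were lower and none higher, with a median of -0.87, and 96.3% were called against 17.8% called lower over all genes. The kinase Aurka read 344, 508 and 517 with H2O2, 1742, 1691 and 1656 with DPI and 1004, 776 and 777 without treatment, so DPI was highest and no groups overlapped (difference -1.88 ± 0.16, adjusted p = 2.8e-08). The motor Kif11 read 493, 634 and 563 with H2O2, 1770.1, 1804 and 1824 with DPI and 1811, 1569 and 1664 without treatment, with DPI near the non-treated level. Top2a had the smallest called difference among these genes, at 2408, 3288 and 2336 with H2O2, 4079, 3359 and 3189 with DPI and 6582, 5507 and 5296 without treatment; the H2O2 and DPI arrays overlapped (difference -0.41 ± 0.15, adjusted p = 0.042), and the call was lost without H2O2 replicate 1 or 3 or DPI replicate 1 or 2, with adjusted p up to 0.187. Ndc80 did not pass (-0.41 ± 0.20, adjusted p = 0.14).

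Against the non-treated arrays, the same 27 genes gave 27 lower with H2O2 and none higher, and with DPI 8 lower and 5 higher. Over all genes, 17.4% were called lower and 10.9% higher with H2O2, and 18.4% lower and 13.3% higher with DPI, against those same arrays.

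DNA replication genes were lower with H2O2 in 25 of 31 cases and higher in none, with a median of -0.70. That is 80.6%, against 17.8% called lower over all genes. Rrm2, the regulated subunit of ribonucleotide reductase, read 1178, 1097 and 1371 with H2O2, 6309, 5448 and 6085 with DPI and 4526, 4019.8 and 5116 without treatment (difference -2.28 ± 0.13, adjusted p = 2.1e-10). Cdc6, which loads the replicative helicase, read 213, 345 and 407 with H2O2, 1093, 1119.8 and 1144 with DPI and 743, 608 and 822 without treatment. All 6 subunits of that helicase were lower with H2O2, from -1.44 for Mcm4 to -0.98 for Mcm6. Pcna, the sliding clamp, differed by -0.50 ± 0.13, whereas Mcm10 (-0.19, adjusted p = 0.35) and Cdc45 (-0.29, adjusted p = 0.3) did not pass.

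Regulators of the G1 phase were lower with H2O2 in 18 of 26 cases and higher in 4, 84.6% called against 33.8% of all genes. Both E-type cyclins were lower. Ccne2 read 624, 465 and 627 with H2O2, 2567, 3358 and 3153 with DPI and 1028, 1270.5 and 1217 without treatment, and Ccne1 read 381, 197 and 255 with H2O2, 1417, 1190.1 and 1275 with DPI and 1072, 577 and 712 without treatment. The factors E2f1 (-1.02), E2f2 (-1.80) and E2f8 (-1.98) were lower too, as were the brakes of the cycle Cdkn1b (-1.38), Cdkn2c (-1.85) and Cdkn2d (-1.65). Cdkn2d read 1092, 1189 and 1102 with H2O2, 4055, 3238 and 3462 with DPI and 2338, 1849.6 and 1954 without treatment.

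The inhibitor Cdkn1a, or p21, differed in the other direction. It read 8449, 9375 and 7159 with H2O2, 3151, 2625 and 3015 with DPI and 1337, 1318 and 958 without treatment, no groups overlapping (H2O2 minus DPI 1.50 ± 0.13, adjusted p = 7.1e-08). The D-type cyclins Ccnd1 and Ccnd2 and the kinase Cdk6 made up the rest of the higher members. Ccnd1 read 5805, 5105 and 4743 with H2O2 and 2342, 2406 and 1844 with DPI, both under 10485, 10259 and 9710 without treatment. Ccng2, a cyclin linked to arrest of the cycle, read 6468, 6028 and 6277 with DPI, 1228, 1461 and 1425 with H2O2 and 2767, 3136 and 2708 without treatment (difference -2.18 ± 0.10, adjusted p = 4.0e-11).

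**Figure D4:**
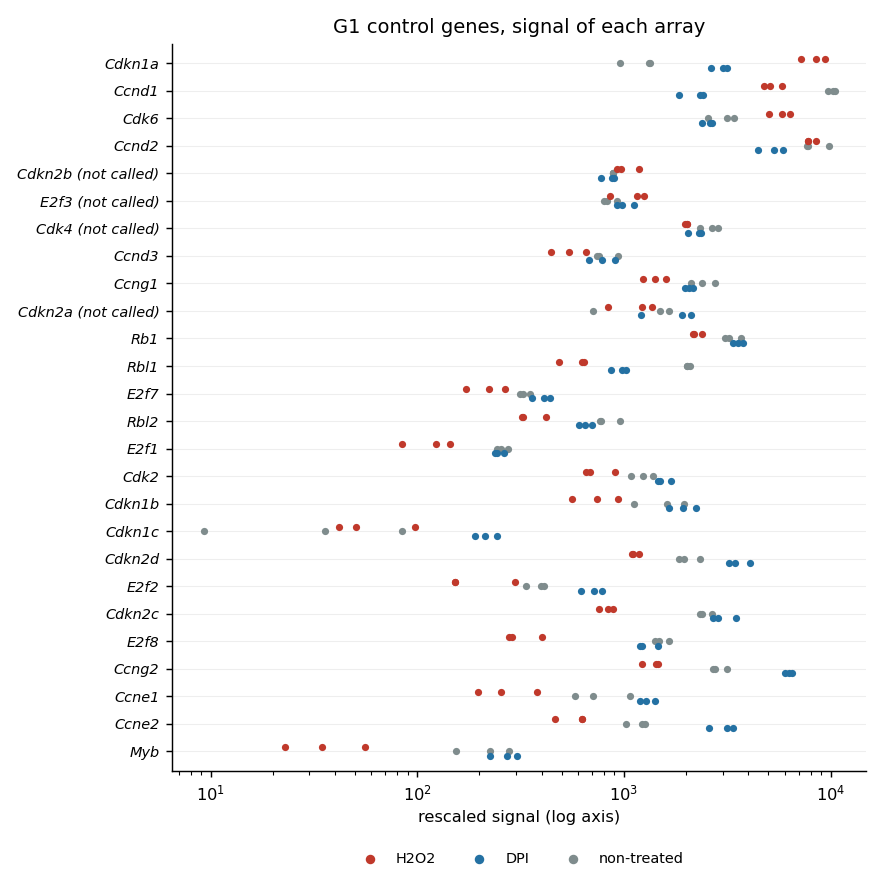
Rescaled signal (log axis) of each H2O2, DPI and non-treated array for the 26 G1 control genes tested, ordered by the difference H2O2 minus DPI. The H2O2 arrays lie above the DPI arrays for Cdkn1a, Ccnd1, Cdk6 and Ccnd2 and below them for the 18 genes called lower, down to Myb at 23 to 55.7 with H2O2 against 224 to 303 with DPI.

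p53 targets other than Cdkn1a were mixed. Of 22 tested, 4 were higher with H2O2 and 8 lower, or 5 lower without H2O2 replicate 3 or DPI replicate 2. With all arrays 54.5% were called, against 33.8% of all genes. The death receptor Fas read 281, 283 and 335 with H2O2, 52.6, 56.8 and 95.2 with DPI and 21.5, 32.1 and 52.8 without treatment. Trp53inp1 read 149, 114 and 199 with H2O2 but 799.9, 760.1 and 840.0 with DPI and 812, 797 and 816 without treatment. Plk2 (-1.19 ± 0.36) and Pmaip1 (-0.88 ± 0.16) were higher with DPI, and Mdm2 had a difference of -0.01 ± 0.18 (adjusted p = 0.99). Of 19 genes of survival and death tested, 6 were higher with H2O2 and 3 lower, with a median of -0.01. The called share was 47.4%, against 33.8% of all genes, and 1 called member had another probe set called in the opposite direction. Among these genes, Mcl1, which keeps mitochondria intact, read 17287, 16952 and 20556 with H2O2, 3509.7, 5802 and 3306 with DPI and 11051, 11547 and 11854 without treatment. Birc3 differed by 1.85 ± 0.11 and Gadd45g by -1.33 ± 0.17.

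Ribosome biogenesis genes, in contrast to those of division, were higher with H2O2. Of 40 tested, 25 were higher and none lower, 62.5% against 16% called higher over all genes, with a median of 0.50. Ppan, a factor of the large subunit, read 2696, 2662 and 2514 with H2O2, 627, 789 and 623 with DPI and 1633, 1436 and 1516 without treatment (difference 1.93 ± 0.14, adjusted p = 7.9e-09). The nucleolar GTPase Gnl3 read 4325, 4529 and 4742 with H2O2, 2101, 2164 and 2088 with DPI and 3619.8, 3753 and 3763 without treatment. Polr1b, a subunit of RNA polymerase I, differed by 1.44 ± 0.26, Rrs1 by 1.21 ± 0.14 and the core nucleolar proteins Nop56 and Nop58 by 0.70 ± 0.12 and 0.65 ± 0.12. Fibrillarin, Fbl (-0.09, adjusted p = 0.62), nucleolin, Ncl (0.16, adjusted p = 0.39), and nucleophosmin, Npm1 (0.12, adjusted p = 0.51), did not pass.

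Against the non-treated arrays, 17 of the 40 were lower with DPI and 3 higher, and with H2O2 9 were higher and none lower. Their medians against those shared arrays were -0.34 with DPI and 0.14 with H2O2, beside -0.0065 and -0.065 over all genes.

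**Figure D5:**
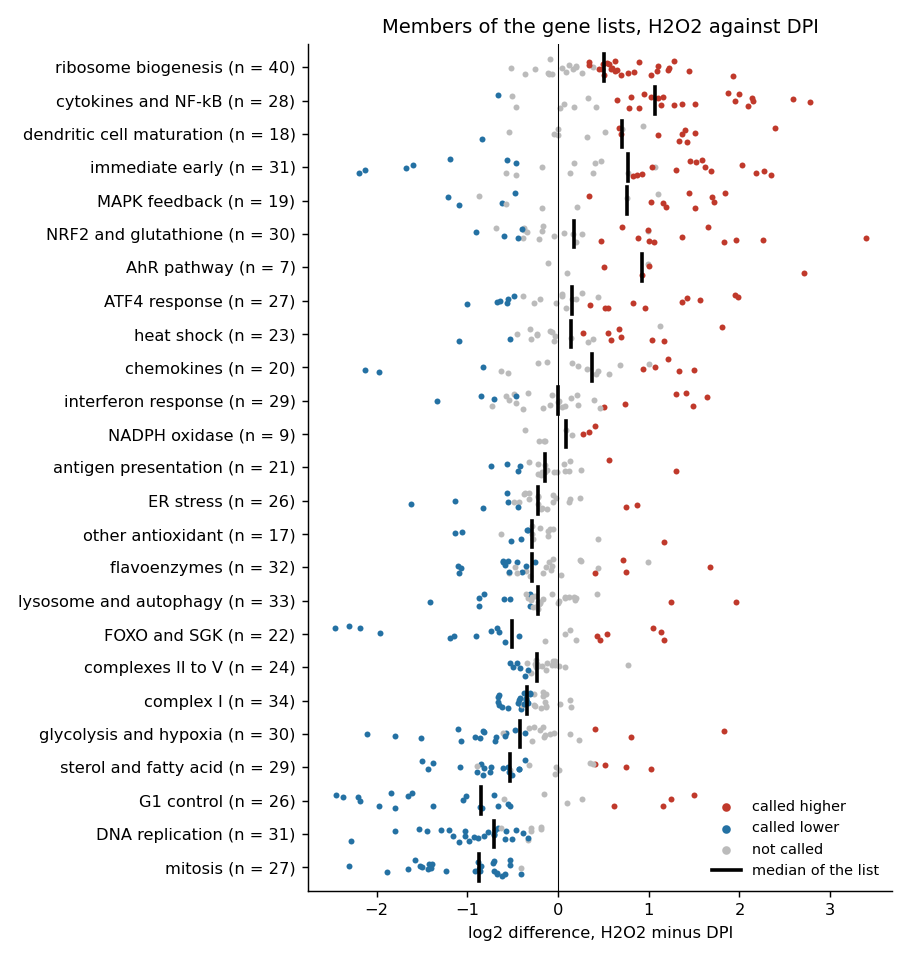
Log2 difference, H2O2 minus DPI, of each tested member of 25 gene lists (horizontal axis; points are genes, spread vertically for sight only), red where called higher, blue where called lower and grey where not called, with a black bar at the median of the list. Medians run from 1.06 for cytokines and NF-kB to -0.87 for mitosis, and the immediate early, FOXO and ATF4 lists hold called genes on both sides of 0.

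In complex I of the respiratory chain, a flavoprotein complex, 20 of 34 subunit genes were lower with H2O2 and none higher, 58.8% against 17.8% called lower over all genes, with a median of -0.34 and none at 2-fold. The count fell to 12 without H2O2 replicate 3 and to 13 without DPI replicate 1. Ndufv1, the subunit that carries the flavin, read 1870.3, 2456 and 2126 with H2O2, 3474, 3167 and 3565 with DPI and 2980.3, 2838 and 2887 without treatment (difference -0.66 ± 0.11, adjusted p = 0.00014). Against the non-treated arrays 15 of the 34 were higher with DPI and none lower, while with H2O2 1 was higher and 4 lower. Of 24 genes of complexes II to V, 6 were lower with H2O2 than with DPI and none higher, 25% called against 33.8% of all genes, among them the succinate dehydrogenase subunits Sdha (-0.45 ± 0.11), Sdhc (-0.53 ± 0.11) and Sdhd (-0.49 ± 0.13). One other probe set of Sdha had the opposite sign and was not called.

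Glycolysis and hypoxia genes were lower with H2O2 in 15 of 30 cases and higher in 3, 60% called against 33.8% of all genes. Bnip3, a mitophagy receptor induced by hypoxia, read 1649, 1838 and 1475 with H2O2, 9118, 6384 and 6231 with DPI and 4014, 3414 and 1813 without treatment (difference -2.10 ± 0.22, adjusted p = 5.4e-07). The glucose transporter Slc2a3 read 8655, 9231 and 7646 with H2O2, 21996, 15352 and 18132 with DPI and 8161, 6896 and 5459 without treatment. The oxygen sensor Egln3 differed by -1.51 ± 0.22 and the MYC antagonist Mxi1 by -1.79 ± 0.15. Adm (1.83 ± 0.30) and Vegfa (0.81 ± 0.20), also induced by hypoxia, went the other way.

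Sterol and fatty acid genes were lower with H2O2 in 17 of 29 cases and higher in 4, 72.4% called against 33.8% of all genes. The desaturase Scd2 read 9481, 10163 and 9969 with H2O2, 30268, 22278 and 24891 with DPI and 19133, 17257 and 17953 without treatment. Fdps, of the mevalonate pathway, was raised over the non-treated arrays by both compounds, at 3872, 4473 and 3276 with H2O2, 6828, 6968 and 6946 with DPI and 2572, 2214 and 2549 without treatment. The elongase Elovl6 (-1.44 ± 0.13), the citrate lyase Acly (-1.08 ± 0.12) and the cholesterol exporter Abca1 (-1.51 ± 0.15) were lower with H2O2, while its relative Abcg1 was higher (1.02 ± 0.16). The other probe sets of Abca1 and Abcg1 had the opposite sign and were not called. Hmgcs1, an early enzyme of the pathway, differed by -0.36 ± 0.12 (adjusted p = 0.02), a call lost without H2O2 replicate 1, DPI replicate 1 or DPI replicate 2. Without H2O2 replicate 2 or DPI replicate 1, 2 members were higher.

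Targets and partners of FOXO factors were lower with H2O2 in 12 of 22 cases and higher in 6, a list that holds Sgk1, Ccng2, Trp53inp1 and Txnip described above. The called share was 81.8%, against 33.8% of all genes. The ubiquitin ligase Fbxo32 differed by -1.20 ± 0.23, Pik3ip1 by -1.15 ± 0.25 and the factor Foxo3 by -0.59 ± 0.12. On the other side stood the insulin receptor substrate Irs2 (1.13 ± 0.19) and the receptor Il7r (1.04 ± 0.25). The forkhead element GTAAACA, the motif looked up for this list, was found in none of the 6 start windows of Sgk1.

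Of 17 genes of metal handling, 5 were higher with H2O2 and 3 lower, 47.1% called against 33.8% of all genes. The metallothionein Mt1, which binds zinc, read 29894, 30737 and 27057 with H2O2, 11551, 10395 and 9887 with DPI and 30455, 26167 and 24229 without treatment, so that DPI alone was low. Its relative Mt2 read 22498, 20352 and 18779 with H2O2, 7217, 7518 and 6744 with DPI and 19211, 15332 and 14485 without treatment. The zinc exporter Slc30a1 read 2222, 2272 and 2014 with H2O2, 709.9, 502 and 620.1 with DPI and 609.6, 885 and 778 without treatment, and here H2O2 alone was high. The zinc importer Slc39a10 (-1.03 ± 0.18) was lower with H2O2, like Slc39a8, and Slc39a14 (0.36 ± 0.12) was higher. Ncoa4, the receptor for ferritin breakdown, read 6819.8, 5603 and 6568 with DPI, 2416, 2732 and 2633 with H2O2 and 2050.1, 2049 and 2162 without treatment.

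Genes of the aryl hydrocarbon receptor (AhR) were higher with H2O2 in 4 of 7 cases and lower in none, 1 of them Nfe2l2, which the NRF2 list also holds. The called share was 57.1%, against 33.8% of all genes. Cyp1b1, a cytochrome that AhR induces, read 403, 408 and 474 with H2O2, 103, 75.1 and 13.9 with DPI and 413, 378 and 467 without treatment, and the H2O2 and non-treated arrays overlapped (H2O2 minus DPI 2.71 ± 0.44, adjusted p = 7.0e-05). The repressor Ahrr read 757, 1164 and 1203 with H2O2, 627, 602 and 395 with DPI and 1712, 1799.5 and 1656 without treatment. The receptor itself, Ahr, had a difference of 0.09 ± 0.14 (adjusted p = 0.67).

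Of 18 dendritic cell markers, 6 were higher with H2O2 and 2 lower, 44.4% called against 33.8% of all genes, beside the summed signals given above, whose part in the other results was not tested. The markers had a median difference of 0.10, with 11 of them above 0 and 7 below. Csf2rb, the shared receptor chain for GM-CSF, read 17450, 15317 and 17601 with H2O2, 5023, 5509.6 and 5569 with DPI and 22141, 21943 and 22458 without treatment (difference 1.64 ± 0.12, adjusted p = 4.1e-09). The master regulator PU.1, Spi1, read 5482, 4989 and 3568 with H2O2, 2214, 2049.8 and 1608 with DPI and 5434, 4826 and 4426 without treatment, the first and last overlapping. Cd207, langerin, was dim and read 80.5, 354 and 243 with H2O2, 22.3, 32.4 and 43.5 with DPI and 92.6, 223 and 90.6 without treatment. The marker Csf1r (-0.55 ± 0.12) was lower with H2O2. Flt3 (-1.31, limma adjusted p = 0.105) and Itgax (-0.31, limma adjusted p = 0.0515) leaned the same way but did not pass. Of 26 genes of pattern receptors and purinergic signalling, 4 were higher and 7 lower, 42.3% called against 33.8% of all genes. The purinergic receptor P2ry6 read 404, 403 and 371 with H2O2, 31.7, 32.9 and 61.4 with DPI and 695, 628 and 492 without treatment (difference 2.88 ± 0.30). Cd14, the co-receptor for lipopolysaccharide, was instead raised with H2O2 alone, at 5888, 8184 and 7181, against 1559, 1656 and 1644 with DPI and 1443, 1331 and 1159 without treatment. Itgam (-0.99 ± 0.19) and Tlr3 (-1.38 ± 0.43) were lower with H2O2. Of the pattern receptor genes, 2 were higher without H2O2 replicate 2, H2O2 replicate 3 or DPI replicate 1, and 4 lower without DPI replicate 2.

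Of 24 matrix and adhesion genes tested, 6 were higher with H2O2 and 6 lower, with a median of -0.20. That is 50% called, against 33.8% of all genes. Among proteases, besides Mmp12, the urokinase receptor Plaur (1.97 ± 0.20), its ligand Plau (1.25 ± 0.18) and the collagenase Mmp13 (1.60 ± 0.32) were higher with H2O2, and the gelatinase Mmp9 (-0.98 ± 0.20) was lower. Ctsl, cathepsin L, read 9660.2, 7231 and 9299 with DPI, 3687, 3211 and 2870 with H2O2 and 2838, 2154 and 2774 without treatment. Of 33 lysosome and autophagy genes 8 were lower with H2O2 and 2 higher, Sqstm1 and the factor Tfe3 (1.25 ± 0.14); 30.3% were called, no more often than the 33.8% of all genes.

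Where the comparison was split by the deposited scaling target, arrays with a target of 500 gave 2975 called genes (1439 higher, 1536 lower) and those with a target of 250, with 1 array a group and the spread taken from the DNFB arrays, gave 2602 (1360 and 1242). With the target as a block 4530 were called. Of 4298 called genes, 2417 had at least 1 more kept probe set, 618 had one with the opposite sign and 68 had one that was also called in the opposite direction.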

How the data were processed

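RNA from the cell line was hybridised to 1-colour Affymetrix arrays. The deposited values are linear intensity signals that the authors made with MAS5 in Affymetrix Expression Console, per the submitters' processing notes, which give no versions. Their 2% trimmed mean was 250 on 6 arrays, among them replicate 1 of H2O2 and of DPI, and 500 on the other 9, so every array was rescaled to 500. After log2(signal + 15), probe sets under the 40th percentile of mean signal (6.22) were dropped, 27022 (60%) were kept, and the brightest probe set of each gene was used. Differences were tested in R 4.3.3 with limma 3.58.1 over all 15 arrays (5 groups, trended eBayes, 10 residual degrees of freedom) with Benjamini-Hochberg adjustment, and the fit was tested on simulated data.

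Named without regard to a list were the 15 largest called differences each way whose H2O2 and DPI signals did not overlap and whose higher group averaged at least 100, leaving out predicted genes. Members of lists could be named in order of size, with a fixed set given whatever its values, but the list members named here were picked after their values were seen and skip some larger differences. The members and lists were chosen with earlier results of these data known. Promoter sequences are those of RefSeq (GRCm38.p6), 250 bases before the start, for 13 genes looked up for a motif of their list. Windows of Havcr2, Cdc6 and Rrm2, with no motif assigned, were searched as well, and sites further upstream were not searched. The number of arrays limits the precision. Alternatives varied the scaling, filter, pseudocount, probe set choice, model and arrays. Arrays given DNFB entered through the shared spread. They also entered the mean signal over all 15 arrays, which set the filter and the probe set of each gene.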

Additional observations from a re-analysis of the deposited data

How the results depend on the processing

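The 4298 called genes (2032 higher, 2266 lower) stayed within 1.5 times of those counts under other pseudocounts, filters on genes, normalizations, probe set averages and limma settings, and with the scaling target as a block. Left as deposited, with mixed scaling targets, the values gave 226 calls (141 higher, 85 lower), where the difference in scale itself enters the spread within groups. Testing each kept probe set gave 7325 (3799 higher, 3526 lower), and every probe set without a filter 6709 (3518 higher), where more features were tested. Requiring 2-fold left 1292 (721 and 571). Arrays of target 250 alone gave 2602 (1242 lower), with 1 array in each of the groups compared. Leaving out 1 array gave 3628 to 3889 calls, 1764 to 1870 higher and 1846 to 2077 lower. The settings for every probe set, for target 250 and without the DPI + DNFB arrays (4625 calls) were chosen after seeing the data.

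Replicate numbers were shared by the groups, but deviations of same-numbered H2O2 and DPI arrays correlated with r of only 0.0279 to 0.0988, so the numbers were not taken as pairs, although each H2O2 array correlated best with its own number. With the replicate number as a block, 4656 genes were called over all arrays and 4531 over the 6 arrays.

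Of 244 genes named, 216 were called, of which 72 kept the call under all 29 settings, 109 lost it under 1 or 2 and 35 under more. Of the 28 not called, 6 were called under some setting. Values as deposited ended the most calls, 138. Sdha changed sign, to 0.0031 (limma adjusted p = 0.994), when its kept probe sets were averaged, and its probe sets disagree. Besides those noted beside their results, calls of Etfa, Plk2, Psmb8, Psmb10, Slc39a14, Spry4, Tkt and Tlr3 were lost without at least 1 single array. Among all named genes that lost a call in this way, the highest limma adjusted p was 0.253, for Oas3 without H2O2 replicate 3. Egr1 (adjusted p = 0.0302) and Flt3 (adjusted p = 0.0446) were called without H2O2 replicate 1, Itgax without H2O2 replicate 2 or DPI replicate 3, and Ndc80 without H2O2 replicate 2.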
